A study of Mus musculus with 29 samples.

Results

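Loss of Gli3 was set against loss of Gli2 in fibroblasts from around the mouse common bile duct. The comparison took every library of the 2 genotypes by its label: 2 Gli3FF libraries and 2 Gli2FF libraries, 4 of the 29 RNA-seq libraries of the study and 4 of the 23 made from the Pdgfra line. The Gli3FF and Gli2FF mice and the Gli2FFGli3FF (4 libraries) and wild type mice (5 libraries) quoted for orientation all carried Pdgfra:CreERT2 and Rosa26:lox-STOP-lox-tdTomato. By the labels the wild type mice differed from them in the Gli alleles, except that the description of wild type replicate 5 also lists the SmoFF allele. Recombination was limited to cells in which the Pdgfra promoter drove the inducible Cre, and the tdTomato reporter marks those cells. FF is taken to mean that both alleles of the gene carry flanking loxP sites, the usual meaning in mouse genetics. The age and sex of the mice, the tamoxifen schedule and the exons that are flanked were not stated in the labels. Per the labels' protocols, each library came from the duct of 1 animal, so the 2 libraries of a genotype are 2 animals.

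Hedgehog ligands bind the receptor Ptch1 and so release the membrane protein Smo, which acts in the primary cilium on the zinc finger transcription factors Gli2 and Gli3. In most tissues Gli2 carries most of the activator function, and Gli3 is mainly cut to a repressor that holds target genes down when ligand is absent. In the gut and biliary tree, epithelial cells are the usual source of ligand, and the fibroblasts beneath them respond. The comparison puts the loss of the main repressor beside the loss of the main activator in the same kind of cell. Other genotypes of the line (4 SmoFF, 3 SmoM2 and 3 Ctnnb1FF libraries) entered the test only through the estimate of spread.

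Total counts were 35599465 and 27372016 in Gli3FF, and 15021796 and 20935275 in Gli2FF, within 15021796 to 38301189 over all Pdgfra libraries. The library makeup differed between the genotypes. The ribosomal RNA locus CT010467.1 took 39.1 and 24.5% of counts in Gli3FF, against 13.5 and 8.56% in Gli2FF and 13.4 to 29.4% in wild type. At least 1 read fell on 17544 and 22143 genes in Gli3FF, against 25279 and 28028 in Gli2FF. Xist, which marks female cells, stood at 0.318 and 258 CPM in Gli3FF and at 0.332 and 965 CPM in Gli2FF, so replicate 2 of both genotypes held female cells while replicate 1 of both and the wild type libraries (0 to 0.169 CPM) did not. The male transcript Ddx3y was at 48.0 and 45.4 CPM in Gli3FF and at 118.9 and 1.65 CPM in Gli2FF, so Gli3FF replicate 2 held transcripts of both sexes although its label gives 1 animal. In Gli2FFGli3FF the ribosomal RNA locus took 38.4 to 50.0% of counts, and 17508 to 20055 genes had a read. Its replicates 1, 3 and 4 also held transcripts of both sexes (Xist at 29.3, 18.2 and 6.17 CPM, Ddx3y at 7.22, 20.3 and 103 CPM). Wild type replicate 5 is wild type by title and genotype and was kept as such. Results below are therefore also given without each of the 4 libraries where a call is lost. CPM here are counts scaled to the library total after trimmed mean of M values (TMM) scaling. The libraries of the 2 genotypes did not overlap for 55.7% of all genes tested, so such a gap sets no gene apart by itself.

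The sorted cells expressed fibroblast genes. Epcam, Pecam1 and Ptprc were near 0, while markers of mesothelium, liver and smooth muscle were read at higher levels, given with the results below. Pdgfra, which drives the Cre, was read at 252 and 321 CPM in Gli3FF and at 381 and 270 CPM in Gli2FF, and did not pass the test (adjusted p = 0.744). The 30 fibroblast identity genes summed to 42306 and 33068 CPM in Gli3FF and to 19378 and 21760 CPM in Gli2FF, below the wild type range of 37216 to 48013 CPM in 3 of the 4 libraries. The epithelial marker Epcam was at 0 CPM in both Gli3FF libraries and at 1.28 and 0.199 CPM in Gli2FF, and the endothelial marker Pecam1 at 0 CPM in Gli3FF and at 0.569 and 0.463 CPM in Gli2FF. Ptprc, the pan-leukocyte marker, was at 0 CPM in Gli3FF and at 0.0474 and 0 CPM in Gli2FF.

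Gli3 was lower in Gli3FF, the direction its label gives. It was read at 14.4 and 12.3 CPM in Gli3FF, against 47.1 and 30.1 CPM in Gli2FF, with 5.81 ± 2.07 CPM in Gli2FFGli3FF (SD, n = 4) and 36.4 ± 6.31 CPM in wild type (SD, n = 5). Both Gli3FF libraries lay below both Gli2FF libraries, and the difference passed the test (log2 change −1.53, SE 0.43, adjusted p = 0.0424; chromosome 13 from 15463235 to 15730026 of mm10). The call is a narrow one: leaving out any one of the 4 libraries ended it (adjusted p from 0.0669 to 0.377), and so did offsets for transcript length and GC content (log2 change −0.58, adjusted p = 0.569), the ribosomal RNA share as a covariate (log2 change −1.60, adjusted p = 0.226), upper quartile scaling (adjusted p = 0.0525) and the fit without wild type replicate 5 (adjusted p = 0.0511). Gli2 did not separate the genotypes. It stood at 8.63 and 26.3 CPM in Gli3FF, against 12.8 and 6.91 CPM in Gli2FF, with 4.84 ± 2.23 CPM in Gli2FFGli3FF and 17.7 ± 3.22 CPM in wild type. The groups overlapped, since Gli3FF replicate 1 lay below Gli2FF replicate 1 (log2 change 0.82, SE 0.60, adjusted p = 0.46605; chromosome 1 from 118834132 to 119053619). Against wild type the log2 change of Gli3 was −1.45 (adjusted p = 0.0317) in Gli3FF, and that of Gli2 was −0.85 (adjusted p = 0.398) in Gli2FF. Counts of a whole gene also include reads from exons that Cre leaves in place, so a level checks the deletion in part. Gli3 was at a similar level in the Ctnnb1FF libraries, whose name gives no Gli allele (13.2, 16.2 and 8.36 CPM). A low Gli3 level was thus not particular to the genotypes with Gli3FF.

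Gli1 and Ptch1, the targets that Hedgehog signalling is best known to switch on, did not pass the test. Gli1, an activator that is itself a target, was at 8.31 and 29.3 CPM in Gli3FF, against 12.9 and 4.73 CPM in Gli2FF (log2 change 1.09, SE 0.87, adjusted p = 0.517). Ptch1, receptor and target at once, was at 83.3 and 126 CPM in Gli3FF, against 119.6 and 28.8 CPM in Gli2FF (log2 change 0.50, SE 0.47, adjusted p = 0.604). In both genes the groups overlapped, and Gli2FF replicate 2 was the lowest of the 4 libraries. The 2 libraries of a genotype were far apart for Gli1 in both genotypes and for Ptch1 in Gli2FF. For Ptch1 the overlap came from Gli2FF replicate 1, which lay above Gli3FF replicate 1. Gli2FFGli3FF held 1.07 ± 1.02 CPM of Gli1 and 57.5 ± 21.2 CPM of Ptch1, and wild type 13.8 ± 7.72 CPM and 30.8 ± 6.55 CPM.

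Hhip, a membrane protein that binds Hedgehog ligands and limits their reach, passed the test. Its level was 32.7 and 21.2 CPM in Gli3FF, against 0.474 and 0.993 CPM in Gli2FF, so both Gli3FF libraries were above both Gli2FF libraries, where few reads were found (log2 change 5.16, SE 1.18, adjusted p = 0.0117; chromosome 8 from 79965851 to 80058006). Gli2FFGli3FF held 6.70 ± 6.11 CPM and wild type 5.66 ± 5.54 CPM. Against wild type the log2 change of Hhip was 2.25 (adjusted p = 0.0967) in Gli3FF and −2.91 (adjusted p = 0.0947) in Gli2FF. The call was lost without Gli3FF replicate 1 (adjusted p = 0.0737), without Gli2FF replicate 1 (adjusted p = 0.167) and without Gli2FF replicate 2 (adjusted p = 0.0781). The length and GC offsets did not end it, and the ribosomal RNA covariate ended the call of Hhip (adjusted p = 0.0751).

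Of the 3 Hedgehog ligand genes only Dhh could be tested. It was at 0 CPM in both Gli3FF libraries, against 0 and 0.298 CPM in Gli2FF, and did not pass (adjusted p = 0.451).

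Among all 14 tested receptors and coreceptors, 3 were higher and 2 lower in Gli3FF, where 2.56% of all genes tested were higher and 2.29% lower, and the median log2 change was 0.01 against −0.34 over all genes. Gpc3, a glypican that binds Hedgehog ligands at the cell surface, was at 597 and 541 CPM in Gli3FF, against 154 and 106 CPM in Gli2FF (log2 change 2.13, SE 0.28, adjusted p = 8.6e-05). Gpc4, a glypican of the same family, was at 56.7 and 40.5 CPM in Gli3FF, against 24.7 and 22.3 CPM in Gli2FF (log2 change 1.05, SE 0.30, adjusted p = 0.0469). Gas1, a coreceptor for Hedgehog ligands, was lower at 204 and 142 CPM in Gli3FF, against 729 and 225 CPM in Gli2FF (log2 change −1.46, SE 0.43, adjusted p = 0.0488). For each of these 3 genes the genotypes did not overlap, although Gli2FF replicate 1 stood far above the other libraries for Gas1. Lrp2, an endocytic receptor that can bind ligand, was at 0 and 0 CPM in Gli3FF, against 11.3 and 11.3 CPM in Gli2FF, at least 202-fold lower when 3 counts are allowed over the Gli3FF group (adjusted p = 0.0315). Gli2FFGli3FF held 2.62 ± 3.28 CPM of Lrp2, 199.9 ± 54.4 CPM of Gpc3 and 364 ± 67.4 CPM of Gas1, and wild type 2.26 ± 1.80 CPM, 268 ± 38.3 CPM and 265 ± 63.8 CPM. Gpc6 lay on the threshold (log2 change −1.60, SE 0.47, adjusted p = 0.0513), and Boc and Cdon did not pass, with log2 changes of 0.46 and −0.08 (adjusted p = 0.67 and 0.926). Gpc6 passed under relative log expression scaling (adjusted p = 0.0404). Gpc3 passed in every fit that left out 1 of the 4 libraries. Other calls ended without Gli3FF replicate 1 (Gpc4, Gas1 and Lrp2, adjusted p from 0.196 to 0.569), without Gli3FF replicate 2 (Gas1 and Lrp2, adjusted p from 0.133 to 0.229), without Gli2FF replicate 1 (Gpc4, Gas1 and Lrp2, adjusted p from 0.0855 to 0.806), without Gli2FF replicate 2 (Gpc4 and Lrp2, adjusted p from 0.0681 to 0.248) and without wild type replicate 5 (Gas1, adjusted p = 0.0596). Passing also depended on the setting, with calls lost under relative log expression scaling (Gpc4, adjusted p = 0.0593), under upper quartile scaling (Gas1, adjusted p = 0.0599), with no filter on low counts (Gpc4, adjusted p = 0.184) and by limma voom (Gas1, adjusted p = 0.0833). The correction for length and GC content ended the calls of Gpc4, Gas1 and Lrp2 (adjusted p from 0.0619 to 0.0774), and that for the ribosomal RNA share ended the calls of Gpc4, Gas1 and Lrp2 (adjusted p from 0.126 to 0.469).

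Of 32 transducers and regulators of Gli proteins, 3 were lower in Gli3FF by edgeR and 0 higher (1 at an unadjusted p under 0.05, 1 by DESeq2 and 1 by limma voom). Over all genes tested 2.29% were lower and 2.56% higher. The 3 were Gli3 itself, Gpr161 and Gsk3b. Gpr161, a ciliary receptor that keeps the pathway off, was at 0.159 and 0 CPM in Gli3FF, against 6.40 and 6.75 CPM in Gli2FF (log2 change −6.31, SE 1.503, adjusted p = 0.0146). Gsk3b, a kinase that marks Gli proteins for processing, was at 54.3 and 82.4 CPM in Gli3FF, against 137 and 144 CPM in Gli2FF (log2 change −1.04, SE 0.27, adjusted p = 0.0259). Both lay lower in each Gli3FF library than in each Gli2FF library. Smo and Sufu, the direct inhibitor of Gli proteins, had log2 changes of −0.33 and −0.51 and did not pass (adjusted p = 0.594 and 0.668). The median of the list was −0.58, with a median transcript length of 4336 nt against 2489 nt over all genes. Calls were lost without Gli3FF replicate 1 (Gli3, Dync2li1 and Gsk3b, adjusted p from 0.0748 to 0.489), without Gli3FF replicate 2 (Gli3 and Gpr161, adjusted p from 0.0902 to 0.174), without Gli2FF replicate 1 (Gli3, Dync2li1 and Gsk3b, adjusted p from 0.136 to 0.377), without Gli2FF replicate 2 (Gli3 and Gsk3b, adjusted p from 0.0669 to 0.157) and without wild type replicate 5 (Gli3, adjusted p = 0.0511). Calls were further lost under upper quartile scaling (Gli3, adjusted p = 0.0525) and with no filter on low counts (Gsk3b, adjusted p = 0.0632). Corrected for length and GC content, the fit ended the calls of Gli3 and Gsk3b (adjusted p from 0.569 to 0.879), and corrected for the ribosomal RNA share it ended the calls of Gli3, Dync2li1 and Gsk3b (adjusted p from 0.209 to 0.509). Of the 36 primary cilium genes, 1 was higher, the dynein chain gene Dync2li1 (log2 change 1.73, adjusted p = 0.00769), and 0 lower (0 at an unadjusted p under 0.05, 0 by DESeq2 and 0 by limma voom).

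Of 20 target genes named for Hedgehog signalling in mesenchyme, 5 were higher in Gli3FF and 0 lower (2 at an unadjusted p under 0.05, 1 by DESeq2 and 2 by limma voom), with a median log2 change of 0.39. Over all genes tested 2.56% were higher and 2.29% lower. Besides Hhip the called targets were Bmp4, Osr2, Rab34 and Hsd11b1. Bmp4, a secreted signal that Hedgehog induces in gut mesenchyme, was at 272 and 229.97 CPM in Gli3FF, against 25.0 and 19.7 CPM in Gli2FF, with 16.7 ± 6.85 CPM in Gli2FFGli3FF and 30.1 ± 4.30 CPM in wild type. It was thus high in both Gli3FF libraries and low in both Gli2FF libraries (log2 change 3.49, SE 0.42, adjusted p = 3.58e-05; chromosome 14 from 46383520 to 46390669). Osr2, a zinc finger transcription factor of mesenchyme, was at 148 and 103 CPM in Gli3FF, against 19.2 and 13.3 CPM in Gli2FF, with 19.4 ± 4.81 CPM in Gli2FFGli3FF and 28.9 ± 7.09 CPM in wild type (log2 change 2.95, SE 0.39, adjusted p = 8.47e-05). Its relative Osr1 was at 58.5 and 55.7 CPM in Gli3FF, against 62.0 and 99.2 CPM in Gli2FF, both far under the 202 ± 29.5 CPM of wild type, and did not pass (log2 change −0.50, SE 0.26, adjusted p = 0.307). Rab34, a small GTPase needed to build cilia, was at 238 and 207 CPM in Gli3FF, against 89.9 and 86.7 CPM in Gli2FF, and wild type held 95.7 ± 10.9 CPM (log2 change 1.33, SE 0.24, adjusted p = 0.00219). Hsd11b1, the enzyme that regenerates active glucocorticoid, was at 767 and 624 CPM in Gli3FF, against 179 and 64.3 CPM in Gli2FF (log2 change 2.51, SE 0.62, adjusted p = 0.0198). The genotypes did not overlap for these 4 called genes. Foxf1, a forkhead factor of gut mesenchyme, overlapped between the genotypes and did not pass (log2 change −0.41, adjusted p = 0.717). With any 1 of the 4 libraries left out Bmp4, Osr2 and Rab34 stayed called. Further calls were lost without Gli3FF replicate 1 (Hhip and Hsd11b1, adjusted p from 0.0737 to 0.154), without Gli2FF replicate 1 (Hhip, adjusted p = 0.167) and without Gli2FF replicate 2 (Hhip and Hsd11b1, adjusted p from 0.0781 to 0.205). With offsets for transcript length and GC content the fit ended none of these calls, and with the ribosomal RNA covariate it ended the calls of Hhip, Rab34 and Hsd11b1 (adjusted p from 0.0691 to 0.107).

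**Figure D1:**
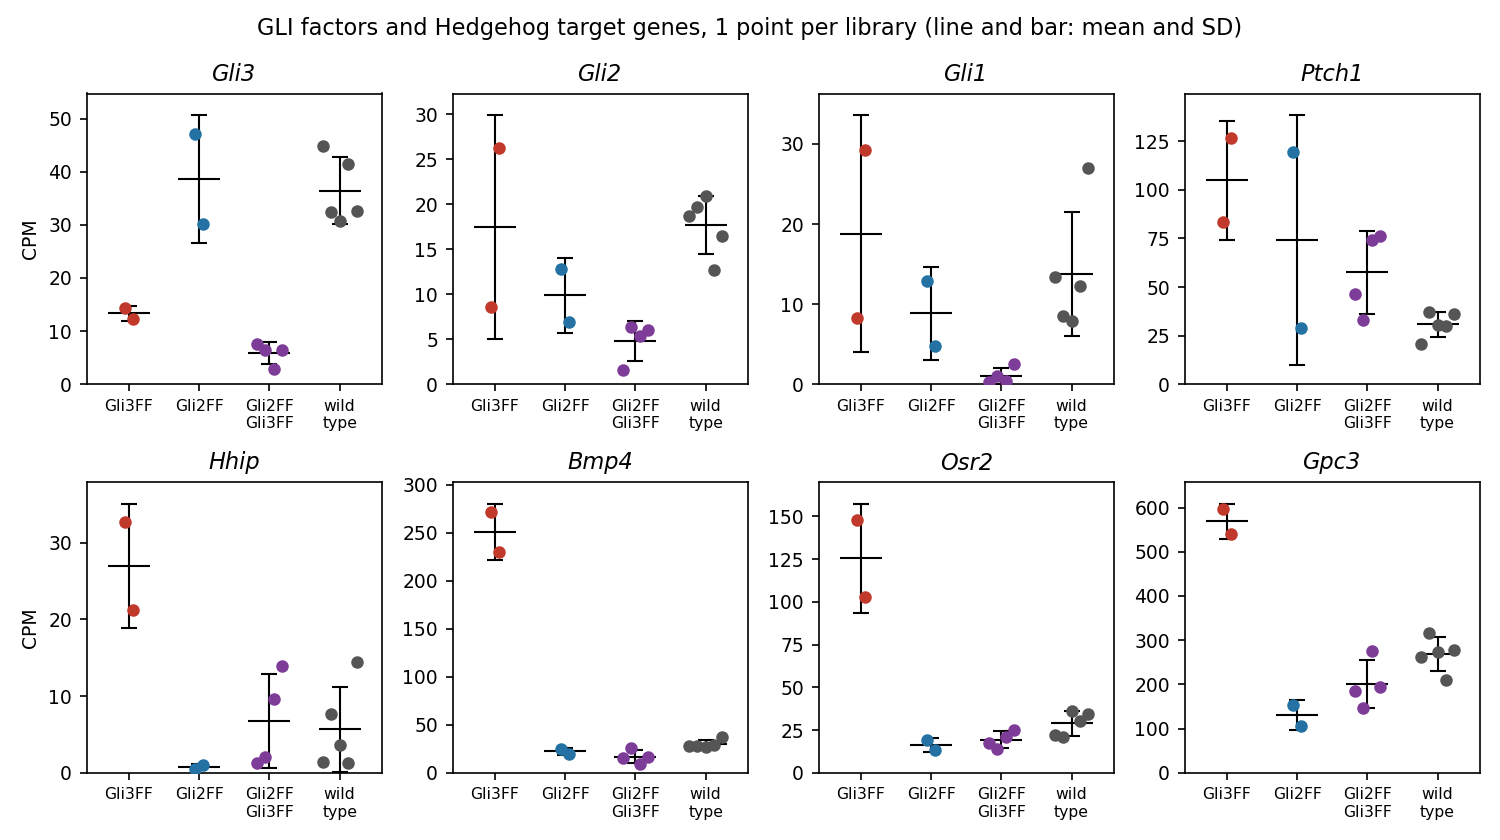
CPM (linear vertical axes from 0) of 8 Hedgehog pathway genes in each Gli3FF, Gli2FF, Gli2FFGli3FF and wild type library, with 1 point per library and lines and bars for the mean and SD of each group. Hhip, Bmp4, Osr2 and Gpc3 lie higher in both Gli3FF libraries than in both Gli2FF libraries, while Gli1, Ptch1 and Gli2 overlap.

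Promoter sequences are printed for 3 of the genes with strong rises, Bmp4, Wif1 and Hhip, and for Rbp4, a further gene with a large rise, whose window holds the core of the Gli binding motif. Each is the 250 bases before a start of the gene (for Rbp4, one of its starts) in GRCm38.p6, 5′ to 3′ on the gene's strand, from RefSeq, and capitals mark a match to the core GGGTGGTC or its reverse complement GACCACCC.
Bmp4, chr14:46390670-46390919, minus strand: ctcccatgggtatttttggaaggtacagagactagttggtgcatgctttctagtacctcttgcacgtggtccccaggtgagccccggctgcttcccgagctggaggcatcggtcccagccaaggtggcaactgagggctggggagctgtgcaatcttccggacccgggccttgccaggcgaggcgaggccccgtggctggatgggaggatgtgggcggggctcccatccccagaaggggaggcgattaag
Wif1, chr10:121033754-121034003, plus strand: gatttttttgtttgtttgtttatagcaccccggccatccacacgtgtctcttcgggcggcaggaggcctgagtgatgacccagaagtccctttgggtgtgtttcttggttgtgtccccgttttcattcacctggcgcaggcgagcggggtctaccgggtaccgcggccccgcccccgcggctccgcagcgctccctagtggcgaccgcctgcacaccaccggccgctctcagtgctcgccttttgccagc
Hhip, chr8:80058009-80058258, minus strand: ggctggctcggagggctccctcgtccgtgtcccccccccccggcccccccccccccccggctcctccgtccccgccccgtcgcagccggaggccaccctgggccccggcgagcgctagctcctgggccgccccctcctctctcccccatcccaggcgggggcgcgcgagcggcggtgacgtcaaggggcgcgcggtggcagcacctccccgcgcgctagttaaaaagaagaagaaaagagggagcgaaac
Rbp4, chr19:38124812-38125061, minus strand: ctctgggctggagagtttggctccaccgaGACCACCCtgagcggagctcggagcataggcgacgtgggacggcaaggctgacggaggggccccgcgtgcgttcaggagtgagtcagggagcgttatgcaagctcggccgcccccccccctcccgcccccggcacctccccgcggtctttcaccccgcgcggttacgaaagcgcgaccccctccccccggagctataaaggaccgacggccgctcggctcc
The window of another Rbp4 start, chr19:38125322-38125571, held 0 matches to the core and is not printed. Both strands were searched for the motif TGGGTGGTC and for its core. The full motif was found in 0 of the 406 genes higher in Gli3FF that had a RefSeq promoter and in 1 of the 398 lower ones (0.251%). It was found in 0.289% of all 27025 genes with a promoter and in 0.244% of the 13535 tested ones. The core, which lies within the full motif, was found in 6 of the higher (1.48%) and 3 of the lower genes (0.754%), against 0.932% of all and 1.02% of the tested ones. These shares describe only the letters of the full promoter window, which extends beyond the 250 bases printed.

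Over all genes, 1181 of 24383 tested were called at an adjusted p under 0.05 (quasi-likelihood test of edgeR, Benjamini-Hochberg adjusted), which is 4.84%. Of these 623 (2.56%) were higher and 558 (2.29%) lower in Gli3FF. The libraries of the genotypes did not overlap for 55.7% of all genes, with Gli3FF above in 20.1% and below in 35.6%. A fit of the 4 libraries alone, with 2 animals per arm, called 0 genes, although 4456 of 19297 had an unadjusted p under 0.05, so the calls rest on the spread shared with the other genotypes. DESeq2 called 2407 genes, 42.4% of them higher in Gli3FF, against 52.8% in the edgeR fit. The median log2 change was −0.34 over all genes and 0.07 over the 9203 genes whose mean log2 CPM reached 3.

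**Figure D2:**
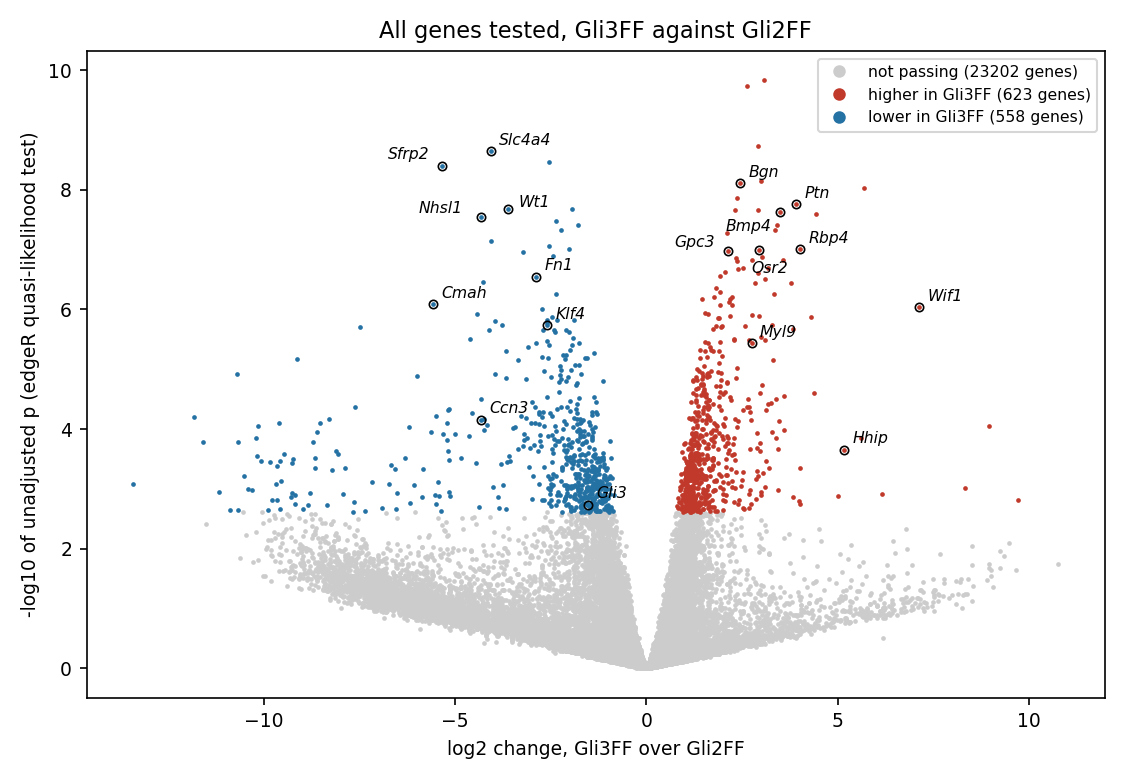
Log2 change, Gli3FF over Gli2FF, of each of the 24383 genes tested (horizontal axis) against −log10 of its unadjusted p (vertical axis), with called genes coloured by direction. Wif1 and Bmp4 stand at the right, and Cmah and Sfrp2 at the left.

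The direction of change moved with transcript length. Genes higher in Gli3FF had a median transcript length of 1846 nt and those lower in Gli3FF of 5163 nt, against 2489 nt over all genes. In the decile of shortest protein-coding transcripts the median log2 change was 0.51, with 101 genes higher and 7 lower, and in the longest decile it was −0.87, with 13 higher and 174 lower. Within libraries, Spearman's rho across genes between transcript length and deviation from the mean of all Pdgfra libraries was −0.160 and 0.0141 in Gli3FF, and 0.354 and 0.301 in Gli2FF, against −0.109 to 0.102 in wild type. Genes are not independent replicates, so no p is given for it. After offsets for length and GC content, 706 genes were called, 494 higher (median length 3405 nt) and 212 lower (3164 nt), and 535 of the 1181 remained among them. With the share of the ribosomal RNA locus as a covariate 236 were called. Short genes, long genes and the ribosomal RNA share therefore moved with the genotypes, and their part in the results was not tested beyond these fits.

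**Figure D3:**
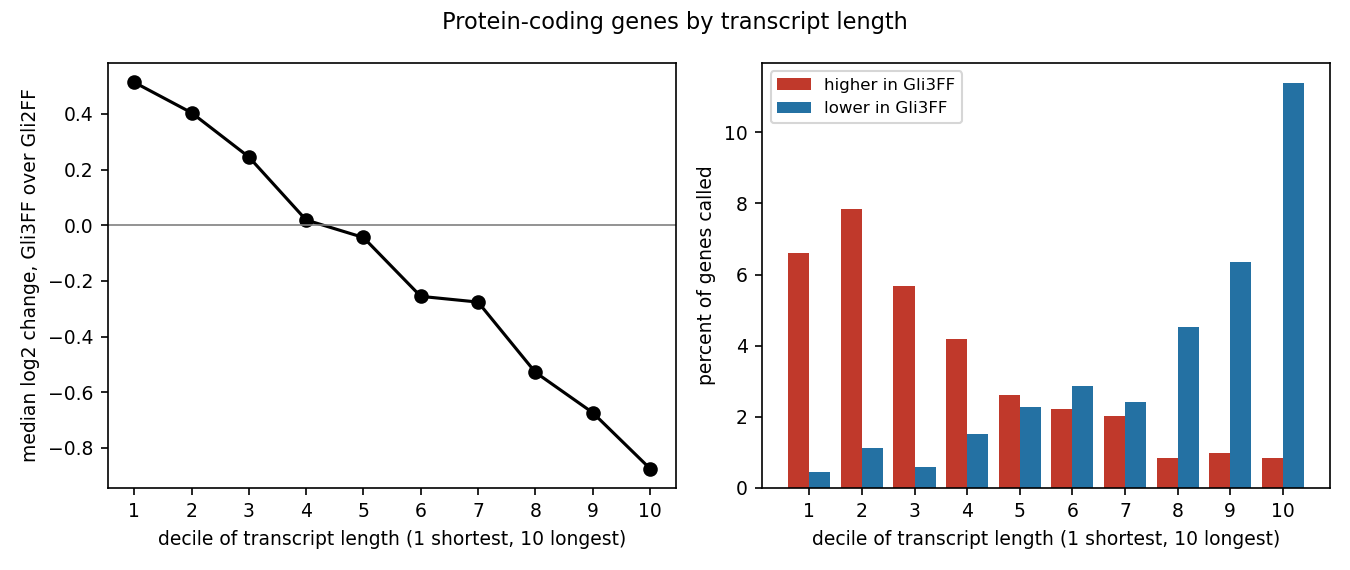
Median log2 change, Gli3FF over Gli2FF (left panel), and percent of genes called higher or lower in Gli3FF (right panel), in each decile of transcript length, for protein-coding genes. The median goes from 0.51 in the shortest decile to −0.87 in the longest. Higher calls are most frequent among short transcripts and lower calls among long ones.

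The 12 largest rises and 12 largest falls were chosen among called genes whose libraries did not overlap between the genotypes. Their separation was thus fixed by the choice and is no further result. The largest rises included several secreted proteins. Wif1, a secreted Wnt inhibitor, was at 439.96 and 442 CPM in Gli3FF, against 5.17 and 1.26 CPM in Gli2FF, with 22.2 ± 10.98 CPM in Gli2FFGli3FF and 24.4 ± 6.12 CPM in wild type (log2 change 7.12, SE 1.07, adjusted p = 0.000362; chromosome 10 from 121033960 to 121100650). Rbp4, the plasma carrier of retinol, was at 385 and 264 CPM in Gli3FF, against 20.5 and 19.5 CPM in Gli2FF (log2 change 4.02, SE 0.52, adjusted p = 8.47e-05; chromosome 19 from 38116629 to 38125281). Ptn, a heparin-binding growth factor, was at 1157 and 864 CPM in Gli3FF, against 63.0 and 70.8 CPM in Gli2FF (log2 change 3.92, SE 0.46, adjusted p = 3.56e-05). All 3 were high in both Gli3FF libraries and low in both Gli2FF libraries. Rbp4 and Ptn stood at 83.3 ± 36.1 CPM and 374 ± 131 CPM in Gli2FFGli3FF and at 36.9 ± 11.5 CPM and 168 ± 14.7 CPM in wild type. Fmod, a small proteoglycan that binds collagen fibrils, was at 137 and 107 CPM in Gli3FF, against 14.2 and 3.61 CPM in Gli2FF (log2 change 3.78, SE 0.53, adjusted p = 0.000185). Cpxm2, a secreted carboxypeptidase-like protein, was at 186 and 141 CPM in Gli3FF, against 20.2 and 7.41 CPM in Gli2FF (log2 change 3.57, SE 0.48, adjusted p = 0.000102). Fmod had 34.1 ± 9.18 CPM and Cpxm2 33.1 ± 5.64 CPM in Gli2FFGli3FF, and 36.6 ± 4.83 CPM and 45.1 ± 8.505 CPM in wild type.

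Genes best known from the liver were also among the largest rises. Cyp2e1, a cytochrome enzyme of drug and ethanol metabolism, was at 851 and 754 CPM in Gli3FF, against 60.4 and 21.6 CPM in Gli2FF (log2 change 4.29, SE 0.66, adjusted p = 0.000465). Ahsg, the plasma protein fetuin-A, was at 88.0 and 84.7 CPM in Gli3FF, against 9.20 and 5.19 CPM in Gli2FF (log2 change 3.59, SE 0.69, adjusted p = 0.00339). Itih3, a hyaluronan-binding plasma protein, was at 29.3 and 32.5 CPM in Gli3FF, against 1.85 and 2.48 CPM in Gli2FF (log2 change 3.83, SE 1.05, adjusted p = 0.0354). The genotypes did not overlap for them, with the Gli3FF libraries higher each time. In Gli2FFGli3FF Cyp2e1 had 89.1 ± 38.4 CPM, Ahsg 20.9 ± 15.6 CPM and Itih3 6.35 ± 5.68 CPM, and in wild type they had 101 ± 38.5 CPM, 34.3 ± 10.4 CPM and 4.80 ± 2.30 CPM. The 14 hepatocyte markers, of which 6 could be tested, summed to 1225 and 1097 CPM in Gli3FF and to 430 and 493 CPM in Gli2FF (222 to 734 CPM in wild type). Cyp2e1 and Ahsg made up most of the sum in Gli3FF and a small part of it in Gli2FF. The rest of the list summed to less in Gli3FF than in Gli2FF. No read fell on 6 of the 14 markers in Gli3FF, and on 3 in Gli2FF. Cyp2e1 and Ahsg were the 2 called higher, and 0 lower (1 at an unadjusted p under 0.05, 0 by DESeq2 and 0 by limma voom). Alb did not reach the read minimum for testing, and the part of hepatocyte RNA in these rises was not tested.

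Iyd, an iodotyrosine deiodinase, was at 405 and 314 CPM in Gli3FF, against 22.9 and 11.9 CPM in Gli2FF (log2 change 4.37, SE 0.83, adjusted p = 0.00316). Pla2g7, which breaks down platelet-activating factor, was at 106 and 69.4 CPM in Gli3FF, against 7.07 and 3.84 CPM in Gli2FF (log2 change 4.01, SE 0.98, adjusted p = 0.018). Ecrg4, a secreted peptide precursor, was at 75.8 and 41.0 CPM in Gli3FF, against 5.83 and 4.76 CPM in Gli2FF (log2 change 3.46, SE 0.72, adjusted p = 0.00606). These 3 were again apart, with the higher level in both Gli3FF libraries. Gli2FFGli3FF held 33.3 ± 19.1 CPM of Iyd, 10.4 ± 6.06 CPM of Pla2g7 and 21.4 ± 8.996 CPM of Ecrg4, and wild type 25.6 ± 12.8 CPM, 0.939 ± 0.724 CPM and 7.76 ± 2.76 CPM. Bmp4, described above, completes the 12. Bmp4, Wif1, Cyp2e1, Rbp4, Ptn, Fmod and Cpxm2 passed in every fit that left out 1 of the 4 libraries. Other calls ended without Gli3FF replicate 1 (Pla2g7, Itih3 and Ecrg4, adjusted p from 0.0804 to 0.159), without Gli3FF replicate 2 (Itih3, adjusted p = 0.0676), without Gli2FF replicate 1 (Pla2g7, Itih3 and Ecrg4, adjusted p from 0.0766 to 0.299) and without Gli2FF replicate 2 (Iyd, Pla2g7, Itih3, Ahsg and Ecrg4, adjusted p from 0.0599 to 0.174). Offsets for transcript length and GC content ended none of these calls, and the ribosomal RNA share as a covariate ended the calls of Pla2g7, Itih3 and Ecrg4 (adjusted p from 0.0638 to 0.2).

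The largest falls, chosen by the same rule as the rises, were more mixed in function. Cmah, a hydroxylase that acts on sialic acid, was at 1.67 and 3.01 CPM in Gli3FF, against 12.8 and 212 CPM in Gli2FF (log2 change −5.58, SE 0.83, adjusted p = 0.000339; chromosome 13 from 24327404 to 24477377). Cwc22, a splicing factor whose copy number varies among mouse strains, was at 7.99 and 8.73 CPM in Gli3FF, against 292 and 67.2 CPM in Gli2FF (log2 change −4.43, SE 0.67, adjusted p = 0.00045; chromosome 2 from 77881159 to 77946375). The strain of the mice is not given in the sources used here. Nhsl1 was at 2.54 and 4.52 CPM in Gli3FF, against 41.9 and 99.7 CPM in Gli2FF (log2 change −4.32, SE 0.52, adjusted p = 3.92e-05). All 3 were low in both Gli3FF libraries, and Gli2FF replicate 1 was the lower Gli2FF library for Cmah and Nhsl1 and the higher for Cwc22. Gli2FFGli3FF held 37.5 ± 8.06 CPM of Cmah, 77.4 ± 32.5 CPM of Cwc22 and 30.7 ± 8.20 CPM of Nhsl1, and wild type 104 ± 33.4 CPM, 10.1 ± 3.55 CPM and 81.2 ± 13.2 CPM. Ccn3, a matricellular protein, was at 3.66 and 2.66 CPM in Gli3FF, against 63.5 and 62.1 CPM in Gli2FF (log2 change −4.31, SE 0.89, adjusted p = 0.00597). Hk2, the inducible hexokinase, was at 3.02 and 1.05 CPM in Gli3FF, against 30.3 and 43.5 CPM in Gli2FF (log2 change −4.18, SE 0.88, adjusted p = 0.00675). Ccn3 had 56.4 ± 27.3 CPM in Gli2FFGli3FF and 229 ± 70.3 CPM in wild type, and Hk2 11.03 ± 1.86 CPM and 6.09 ± 3.11 CPM.

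Tek, the angiopoietin receptor, was at 1.11 and 3.36 CPM in Gli3FF, against 21.2 and 56.9 CPM in Gli2FF (log2 change −4.12, SE 0.66, adjusted p = 0.000599). Slc4a4, a sodium bicarbonate cotransporter, was at 6.28 and 4.52 CPM in Gli3FF, against 95.8 and 85.9 CPM in Gli2FF (log2 change −4.07, SE 0.43, adjusted p = 1.37e-05). Sox4, a transcription factor of progenitor cells, was at 5.09 and 7.61 CPM in Gli3FF, against 112 and 60.5 CPM in Gli2FF (log2 change −3.76, SE 0.59, adjusted p = 0.00056). Each was lower in both Gli3FF libraries than in both Gli2FF libraries. Gli2FFGli3FF held 20.8 ± 6.97 CPM of Tek, 67.0 ± 11.9 CPM of Slc4a4 and 55.2 ± 34.0 CPM of Sox4, and wild type 64.3 ± 13.5 CPM, 55.8 ± 9.71 CPM and 26.9 ± 3.21 CPM. Tmeff2, a membrane protein with follistatin-like domains, was at 2.35 and 2.80 CPM in Gli3FF, against 47.0 and 38.5 CPM in Gli2FF (log2 change −4.05). Bicd1, a dynein adaptor, was at 8.03 and 12.1 CPM in Gli3FF, against 187 and 124 CPM in Gli2FF (log2 change −3.94). The cadherin Pcdh19 was at 2.11 and 3.54 CPM in Gli3FF, against 27.5 and 44.3 CPM in Gli2FF (log2 change −3.66). For them, too, the genotypes did not overlap. Their levels in Gli2FFGli3FF were 39.8 ± 12.7 CPM, 27.3 ± 11.3 CPM and 24.8 ± 15.5 CPM, and in wild type 25.9 ± 3.13 CPM, 27.1 ± 15.1 CPM and 38.3 ± 9.40 CPM. The last of the 12, Wt1, is described with the mesothelial markers. Wt1, Cmah, Cwc22, Nhsl1, Tek, Slc4a4, Tmeff2, Bicd1 and Sox4 stayed called with any 1 of the 4 libraries left out. Other calls were lost without Gli3FF replicate 1 (Ccn3 and Pcdh19, adjusted p from 0.0788 to 0.0917) and without Gli3FF replicate 2 (Ccn3 and Hk2, adjusted p from 0.052 to 0.0663). Calls were further lost by limma voom (Cmah and Ccn3, adjusted p from 0.113 to 0.174). The length and GC offsets ended none of these calls, and the ribosomal RNA covariate ended the call of Hk2 (adjusted p = 0.122).

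**Figure D4:**
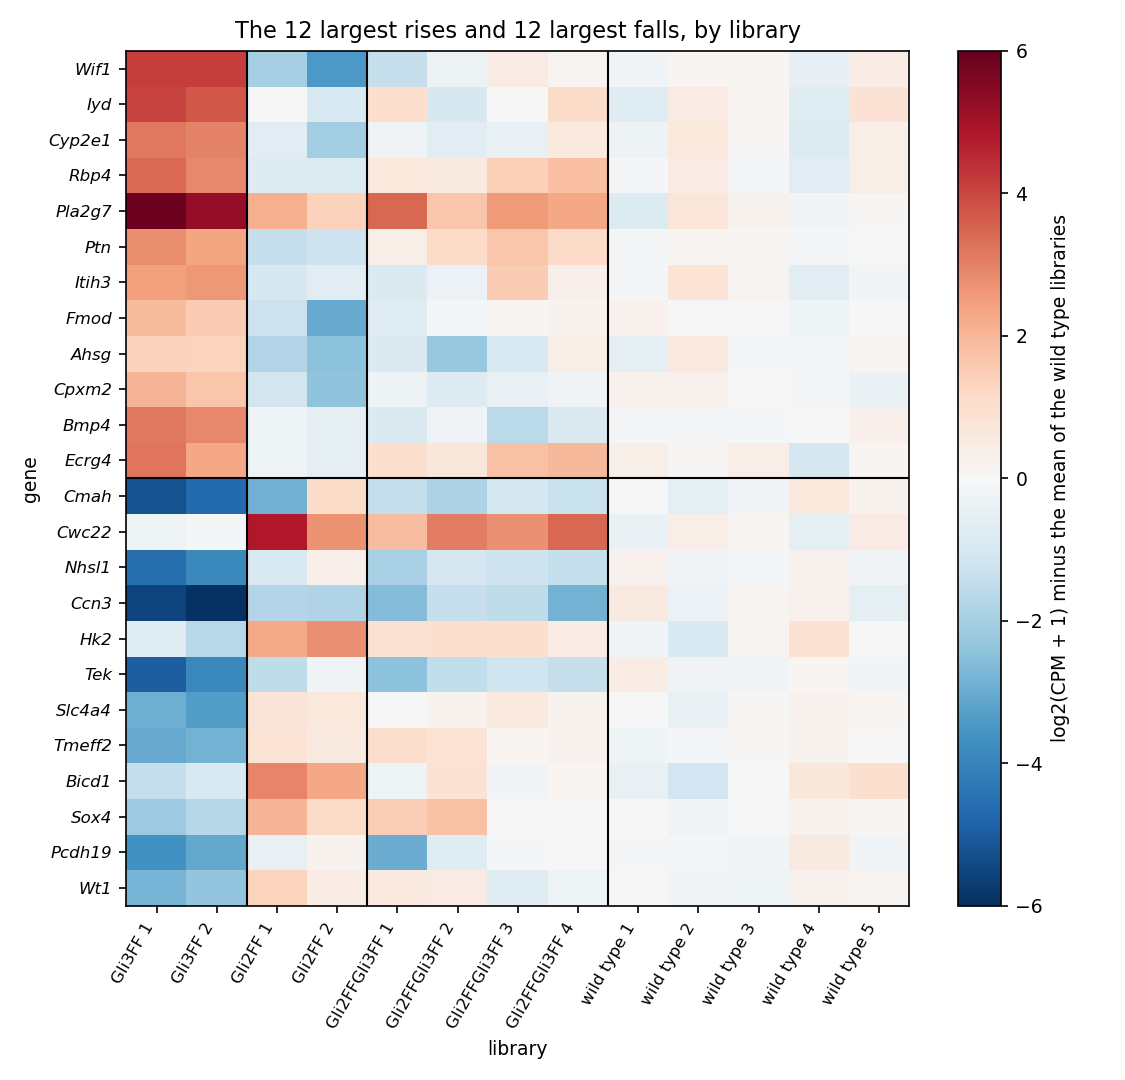
Log2(CPM + 1) of the 12 largest rises and 12 largest falls in each Gli3FF, Gli2FF, Gli2FFGli3FF and wild type library, as a difference from the wild type mean, with colour saturating at ±6. The genes were chosen among those whose libraries did not overlap, so in each row both Gli3FF libraries lie on the same side of both Gli2FF libraries. Which genotype departs from wild type differs from gene to gene.

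Against wild type, which both genotypes share as a control, Gli3FF had 1085 called genes (4.45%), 509 higher (2.09%) and 576 lower (2.36%), and Gli2FF had 1423 (5.84%), 628 higher (2.58%) and 795 lower (3.26%). Set side by side, the log2 change of Wif1 was 4.18 (adjusted p = 0.000351) in Gli3FF and −2.94 (adjusted p = 0.0366) in Gli2FF. For Bmp4 it was 3.06 (adjusted p = 1.4e-06) and −0.43 (adjusted p = 0.52), for Rbp4 3.13 (adjusted p = 1.57e-05) and −0.89 (adjusted p = 0.224), and for Fmod 1.73 (adjusted p = 0.00699) and −2.05 (adjusted p = 0.00812), in the same order. For Cmah it was −5.47 (adjusted p = 0.000208) in Gli3FF and 0.11 (adjusted p = 0.949) in Gli2FF, for Cwc22 −0.27 (adjusted p = 0.835) and 4.15 (adjusted p = 3.08e-05), for Tek −4.83 (adjusted p = 8.09e-05) and −0.72 (adjusted p = 0.464), and for Sox4 −2.08 (adjusted p = 0.0163) and 1.68 (adjusted p = 0.0169). For Bmp4, Rbp4, Cmah and Tek the value against wild type thus passed in Gli3FF and not in Gli2FF, for Cwc22 it passed in Gli2FF and not in Gli3FF, and for Wif1, Fmod and Sox4 it passed in both with opposite signs.

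Genes of the interstitial matrix were mostly higher in Gli3FF where they passed. Of 44 collagens and fibrillar matrix genes, 12 were higher and 2 lower, with a median log2 change of 0.72. Over all genes tested 2.56% were higher and 2.29% lower. Bgn, a small proteoglycan, was at 4625 and 3522 CPM in Gli3FF, against 709.95 and 776 CPM in Gli2FF (log2 change 2.45, SE 0.28, adjusted p = 2.38e-05). Mfap4, a glycoprotein of elastic fibres, was at 1619.8 and 1289 CPM in Gli3FF, against 174 and 237 CPM in Gli2FF (log2 change 2.82, SE 0.40, adjusted p = 0.000185). Fn1, fibronectin, went the other way at 405 and 359.5 CPM in Gli3FF, against 2190.4 and 3409 CPM in Gli2FF (log2 change −2.87, SE 0.40, adjusted p = 0.000156). In all 3 the genotypes were apart. Gli2FFGli3FF held 1523 ± 334 CPM of Bgn, 188 ± 81.3 CPM of Mfap4 and 2269 ± 905 CPM of Fn1, and wild type 2451 ± 347 CPM, 599.7 ± 104 CPM and 1875 ± 456 CPM. The genes of type I collagen rose, Col1a1 by a log2 change of 1.35 (adjusted p = 0.00447) and Col1a2 by 0.99 (adjusted p = 0.0103). The others that rose were the elastic fibre genes Mfap2 (1.96), Fbln5 (1.90) and Fbln1 (1.61) and the small proteoglycans Fmod, Podn (2.18), Prelp (1.51), Dcn (1.22) and Lum (1.21), while Fbln2 fell (−1.52). They are named because they are the called members of the list, so they were chosen after their values were seen, and the same holds for the called list members given by their log2 change alone below. With offsets for length and GC content the list had 18 higher and 1 lower, and with the ribosomal RNA share as a covariate 6 higher and 1 lower. With any 1 of the 4 libraries left out Fmod, Bgn, Mfap4, Fn1, Mfap2, Fbln5, Fbln1 and Podn stayed called. Further calls were lost without Gli3FF replicate 1 (Col1a2, Prelp, Dcn, Lum and Fbln2, adjusted p from 0.0727 to 0.279), without Gli3FF replicate 2 (Fbln2, adjusted p = 0.132), without Gli2FF replicate 1 (Col1a1, Col1a2, Lum and Fbln2, adjusted p from 0.0855 to 0.202) and without Gli2FF replicate 2 (Col1a2, Prelp, Lum and Fbln2, adjusted p from 0.0546 to 0.141). The correction for length and GC content ended the call of Fbln2 (adjusted p = 0.13), and that for the ribosomal RNA share ended the calls of Col1a1, Col1a2, Fbln1, Prelp, Dcn, Lum and Fbln2 (adjusted p from 0.0547 to 0.261).

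Of 23 basement membrane genes 1 was higher, Col4a3 (log2 change 2.85, adjusted p = 0.0232), and 1 lower, the laminin chain gene Lama4 (−1.40, adjusted p = 0.0191). At an unadjusted p under 0.05, 7 were higher and 3 lower, DESeq2 called 5 higher and 1 lower, limma voom 8 higher and 1 lower, and the fit with length and GC offsets 5 higher and 0 lower. Among 26 collagen processing enzymes 2 were higher and 1 lower, against 2.56% and 2.29% of all genes tested. Pcolce, which speeds the cutting of procollagen, was at 1510.4 and 1223 CPM in Gli3FF, against 194 and 329 CPM in Gli2FF (log2 change 2.39, SE 0.33, adjusted p = 0.00013). Bmp1, the protease that makes that cut, was at 52.7 and 75.4 CPM in Gli3FF, against 191 and 265 CPM in Gli2FF (log2 change −1.83, SE 0.36, adjusted p = 0.00475). The enhancer was higher and the protease lower in both Gli3FF libraries. Of 36 matricellular proteins and proteases 5 were higher and 4 lower. Serpine2, a serine protease inhibitor, was at 216 and 148 CPM in Gli3FF, against 17.5 and 22.8 CPM in Gli2FF, with 49.3 ± 18.1 CPM in Gli2FFGli3FF and 64.6 ± 7.93 CPM in wild type (log2 change 3.17, SE 0.43, adjusted p = 0.000128). Sparc (log2 change 1.62), Sparcl1 (2.04), Postn (1.91) and the protease gene Mmp23 (1.49) were the others that rose, and besides Ccn3 the genes that fell were Thbs1 (−3.06), Thbs2 (−1.43) and Mmp14 (−1.33). Pcolce, Serpine2, Sparc, Sparcl1 and Mmp23 passed in every fit that left out 1 of the 4 libraries. Other calls ended without Gli3FF replicate 1 (Ccn3, Col4a3, Lama4, Bmp1, Postn, Thbs1, Thbs2 and Mmp14, adjusted p from 0.0695 to 0.363), without Gli3FF replicate 2 (Ccn3, Col4a3, Thbs2 and Mmp14, adjusted p from 0.052 to 0.181), without Gli2FF replicate 1 (Col4a3, Postn, Thbs1, Thbs2 and Mmp14, adjusted p from 0.0646 to 0.401) and without Gli2FF replicate 2 (Col4a3, Lama4, Bmp1 and Thbs1, adjusted p from 0.0612 to 0.38). Passing also depended on the setting, with calls lost by limma voom (Ccn3, adjusted p = 0.113). Corrected for length and GC content, the fit ended the calls of Lama4 and Thbs2 (adjusted p from 0.248 to 0.427), and corrected for the ribosomal RNA share it ended the calls of Lama4, Sparcl1, Postn, Mmp23, Thbs1, Thbs2 and Mmp14 (adjusted p from 0.0634 to 0.162).

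Contractile genes moved in part. Of 25 genes, 5 were higher and 1 lower, against 2.56% and 2.29% of all genes tested, with a median of 0.27. Myl9, a myosin light chain, was at 259 and 235 CPM in Gli3FF, against 23.2 and 50.2 CPM in Gli2FF (log2 change 2.75, SE 0.45, adjusted p = 0.000842). Gli2FFGli3FF held 124 ± 16.3 CPM and wild type 38.1 ± 8.72 CPM of it, so both Gli3FF libraries were the high ones. Des (log2 change 2.31), Csrp1 (1.73), Cnn2 (1.56) and Myl6 (1.04) also rose, and Cald1 fell (−0.95). The markers of smooth muscle and pericytes, which overlap with this list through Des, summed to 597 and 664 CPM in Gli3FF and to 336 and 281 CPM in Gli2FF (252 to 398 CPM in wild type), with 2 of 16 tested higher and 0 lower (4 at an unadjusted p under 0.05, 3 by DESeq2 and 0 by limma voom). Myl9 stayed called with any 1 of the 4 libraries left out. Other calls were lost without Gli3FF replicate 1 (Des, Csrp1, Cnn2, Myl6 and Cald1, adjusted p from 0.072 to 0.285), without Gli3FF replicate 2 (Des and Cnn2, adjusted p from 0.0614 to 0.074), without Gli2FF replicate 1 (Des, Csrp1, Cnn2, Myl6 and Cald1, adjusted p from 0.0544 to 0.362) and without Gli2FF replicate 2 (Csrp1 and Cnn2, adjusted p from 0.125 to 0.175). Calls were further lost with no filter on low counts (Cald1, adjusted p = 0.0543). With offsets for transcript length and GC content the fit ended the calls of Des, Csrp1, Cnn2, Myl6 and Cald1 (adjusted p from 0.0524 to 0.366), and with the ribosomal RNA covariate it ended the calls of Des, Csrp1, Cnn2, Myl6 and Cald1 (adjusted p from 0.0668 to 0.15).

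The fibroblast identity genes split in both directions, 7 higher and 4 lower of 30, with a median of −0.06. Over all genes tested 2.56% were higher and 2.29% lower. Thy1, a surface antigen of fibroblasts, was at 465 and 368 CPM in Gli3FF, against 58.3 and 39.7 CPM in Gli2FF (log2 change 3.09, SE 0.43, adjusted p = 0.000167). Penk, the enkephalin precursor, was at 1603 and 1129 CPM in Gli3FF, against 215 and 60.5 CPM in Gli2FF (log2 change 3.31, SE 0.57, adjusted p = 0.00128). Dpp4, a surface peptidase of adventitial fibroblasts, was lower, at 0 and 2.35 CPM in Gli3FF, against 20.5 and 27.4 CPM in Gli2FF (log2 change −4.32, SE 0.84, adjusted p = 0.0037). The genotypes were apart in all 3. Gli2FFGli3FF held 86.6 ± 24.1 CPM of Thy1 and 254 ± 143 CPM of Penk, and wild type 188 ± 30.8 CPM and 648 ± 111 CPM. Anxa3 (log2 change −2.09), Ackr3 (−2.05) and Cd55 (−2.22) fell with Dpp4, and Cd34 (0.87), Igfbp6 (1.04), Dcn, Lum and Hhip rose with Thy1 and Penk. With any 1 of the 4 libraries left out Thy1, Penk and Dpp4 stayed called. Further calls were lost without Gli3FF replicate 1 (Dcn, Lum, Hhip, Anxa3, Ackr3, Cd34 and Igfbp6, adjusted p from 0.0727 to 0.624), without Gli3FF replicate 2 (Anxa3 and Ackr3, adjusted p from 0.108 to 0.16), without Gli2FF replicate 1 (Lum, Hhip, Cd34 and Igfbp6, adjusted p from 0.167 to 0.399) and without Gli2FF replicate 2 (Lum, Hhip, Anxa3, Ackr3, Cd55 and Igfbp6, adjusted p from 0.0774 to 0.754). Other settings ended calls, with no filter on low counts (Cd34, adjusted p = 0.0713) and by limma voom (Anxa3 and Ackr3, adjusted p from 0.0883 to 0.148). Offsets for transcript length and GC content ended the calls of Ackr3 and Igfbp6 (adjusted p from 0.0768 to 0.299), and the ribosomal RNA share as a covariate ended the calls of Dcn, Lum, Hhip, Anxa3, Ackr3, Cd34 and Igfbp6 (adjusted p from 0.0547 to 0.376).

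Of 46 tested transcription factors of mesenchyme, 2 were higher, Osr2 and Tcf21, and 5 lower, against 2.56% and 2.29% of all genes tested. Tcf21, a factor of visceral fibroblasts, was at 266 and 227 CPM in Gli3FF, against 71.2 and 36.6 CPM in Gli2FF, with 61.6 ± 24.1 CPM in Gli2FFGli3FF and 54.1 ± 15.8 CPM in wild type (log2 change 2.19, SE 0.42, adjusted p = 0.00347). Klf4, a zinc finger factor, was at 63.6 and 112 CPM in Gli3FF, against 545 and 519 CPM in Gli2FF, with 264 ± 82.1 CPM in Gli2FFGli3FF and 166 ± 56.7 CPM in wild type (log2 change −2.59, SE 0.41, adjusted p = 0.00056). Both separated the genotypes, in opposite directions. Wt1, Ebf2 (log2 change −2.21), Tead1 (−1.77) and Gata6 (−1.35) were the other falls, in a list whose median was −0.55. Of 22 tested Hox genes 0 passed in either direction with edgeR (1 higher and 5 lower at an unadjusted p under 0.05), and DESeq2 and limma voom each called 0 higher and 3 lower. Osr2, Wt1 and Klf4 passed in every fit that left out 1 of the 4 libraries. Other calls ended without Gli3FF replicate 1 (Ebf2, Tead1 and Gata6, adjusted p from 0.164 to 0.58), without Gli3FF replicate 2 (Gata6, adjusted p = 0.0777), without Gli2FF replicate 1 (Ebf2, Tead1 and Gata6, adjusted p from 0.162 to 0.22), without Gli2FF replicate 2 (Tcf21 and Ebf2, adjusted p from 0.068 to 0.179) and without wild type replicate 5 (Ebf2, adjusted p = 0.0662). Passing also depended on the setting, with calls lost under upper quartile scaling (Ebf2, adjusted p = 0.0513), with the ribosomal RNA locus left out (Ebf2, adjusted p = 0.0559) and by limma voom (Ebf2, adjusted p = 0.149). The length and GC offsets ended the calls of Ebf2, Tead1 and Gata6 (adjusted p from 0.0874 to 0.361), and the ribosomal RNA covariate ended the calls of Tcf21, Ebf2, Tead1 and Gata6 (adjusted p from 0.0581 to 0.373).

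Secreted signals of the bone morphogenetic protein (BMP) family moved on both the ligand and the antagonist side. Of 28 genes tested, 4 were higher and 3 lower, against 2.56% and 2.29% of all genes tested. Beside Bmp4, Chrdl1, an antagonist of BMP ligands, was at 206 and 128 CPM in Gli3FF, against 21.2 and 11.7 CPM in Gli2FF, with 65.8 ± 25.5 CPM in Gli2FFGli3FF and 61.9 ± 9.41 CPM in wild type (log2 change 3.34, SE 0.42, adjusted p = 4.9e-05). The ligand gene Gdf10 rose as well (log2 change 1.99, adjusted p = 0.00927). Fst, an antagonist of activins and BMP ligands, fell (−3.35, adjusted p = 0.0116), as did Smad6, an inhibitory Smad (−1.98, adjusted p = 0.049), and Bmp1, which is a protease despite its name. The genotypes were apart in each of these. Bmp4 and Chrdl1 stayed called with any 1 of the 4 libraries left out. Other calls were lost without Gli3FF replicate 1 (Bmp1, Gdf10 and Smad6, adjusted p from 0.0748 to 0.301), without Gli3FF replicate 2 (Fst and Smad6, adjusted p from 0.0854 to 0.209), without Gli2FF replicate 1 (Smad6, adjusted p = 0.455), without Gli2FF replicate 2 (Bmp1, Gdf10 and Smad6, adjusted p from 0.0612 to 0.107) and without wild type replicate 5 (Smad6, adjusted p = 0.0615). Calls were further lost under upper quartile scaling (Smad6, adjusted p = 0.0615), with the ribosomal RNA locus left out (Smad6, adjusted p = 0.0518), with no filter on low counts (Smad6, adjusted p = 0.169) and by limma voom (Fst and Smad6, adjusted p from 0.0953 to 0.111). The correction for length and GC content ended the call of Smad6 (adjusted p = 0.115), and that for the ribosomal RNA share ended the calls of Gdf10, Fst and Smad6 (adjusted p from 0.158 to 0.292).

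Secreted Wnt inhibitors did not move one way. Of 22 inhibitors and feedback targets tested, 2 were higher and 1 lower, against 2.56% and 2.29% of all genes tested. Sfrp2, a Wnt-binding protein, was at 0.915 and 1.23 CPM in Gli3FF, against 22.9 and 64.4 CPM in Gli2FF, opposite in direction to Wif1 (log2 change −5.34, SE 0.58, adjusted p = 1.6e-05). It had 59.1 ± 22.5 CPM in Gli2FFGli3FF and 183 ± 49.0 CPM in wild type, so both genotypes stood below wild type on average. Apcdd1, a membrane inhibitor of Wnt signalling, was higher (log2 change 2.46, adjusted p = 0.0272). Among 17 tested Wnt ligand and secretion genes 1 was lower and 0 higher (1 at an unadjusted p under 0.05, 0 by DESeq2 and 0 by limma voom). That gene, Wnt10b, was at 0 and 0 CPM in Gli3FF, against 2.37 and 8.30 CPM in Gli2FF, at least 105-fold lower when 3 counts are allowed over the Gli3FF group (adjusted p = 0.0152), with 1.94 ± 0.690 CPM in Gli2FFGli3FF and 16.1 ± 3.46 CPM in wild type. With any 1 of the 4 libraries left out Wif1 and Sfrp2 stayed called. Further calls were lost without Gli3FF replicate 1 (Apcdd1 and Wnt10b, adjusted p from 0.196 to 0.358), without Gli3FF replicate 2 (Wnt10b, adjusted p = 0.0816), without Gli2FF replicate 1 (Apcdd1, adjusted p = 0.243) and without Gli2FF replicate 2 (Apcdd1 and Wnt10b, adjusted p from 0.0669 to 0.161). Other settings ended calls, by limma voom (Sfrp2, adjusted p = 0.0617). Corrected for length and GC content, the fit ended none of these calls, and corrected for the ribosomal RNA share it ended the calls of Apcdd1 and Wnt10b (adjusted p from 0.0635 to 0.555).

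Growth factors of the stroma were higher in 9 and lower in 3 of 38 genes, with a median of 0.44. Over all genes tested 2.56% were higher and 2.29% lower. Vegfd, a lymphatic growth factor, was at 326 and 344 CPM in Gli3FF, against 77.4 and 90.4 CPM in Gli2FF (log2 change 1.997, SE 0.42, adjusted p = 0.00652). Nrg1, a ligand of ErbB receptors, was at 38.2 and 77.7 CPM in Gli3FF, against 1.90 and 0.529 CPM in Gli2FF (log2 change 5.59, SE 1.22, adjusted p = 0.00903). Hgf, which acts on epithelium through Met, was at 28.0 and 74.1 CPM in Gli3FF, against 19.2 and 13.7 CPM in Gli2FF (log2 change 1.63, SE 0.44, adjusted p = 0.0334). In these 3 both Gli3FF libraries lay above both Gli2FF libraries. Fgf10 (log2 change 1.94), Ntf3 (2.38), Pdgfd (1.35), Angptl2 (1.18), Igfbp4 (1.20) and Igfbp6 were the other rises. The 3 falls were all fibroblast growth factors. Fgf9 was at 0.0795 and 0.0701 CPM in Gli3FF, against 8.54 and 3.11 CPM in Gli2FF (log2 change −6.19, SE 1.32, adjusted p = 0.00704), with 10.5 ± 9.42 CPM in Gli2FFGli3FF and 12.1 ± 4.40 CPM in wild type. Fgf16 was at 0 and 0 CPM in Gli3FF, against 3.65 and 4.07 CPM in Gli2FF, at least 69.7-fold lower with 3 counts allowed over the Gli3FF group (adjusted p = 0.00642). Fgf2 was at 25.1 and 17.2 CPM in Gli3FF, against 83.8 and 84.8 CPM in Gli2FF (log2 change −1.99, SE 0.40, adjusted p = 0.00494). Fits of fewer libraries lost calls without Gli3FF replicate 1 (Igfbp6, Fgf10, Ntf3, Pdgfd, Angptl2, Igfbp4, Fgf9 and Fgf16, adjusted p from 0.121 to 0.624), without Gli3FF replicate 2 (Hgf, Fgf10, Ntf3, Pdgfd, Angptl2, Fgf9 and Fgf2, adjusted p from 0.0545 to 0.397), without Gli2FF replicate 1 (Igfbp6, Vegfd, Nrg1, Hgf, Fgf10, Ntf3, Pdgfd, Igfbp4 and Fgf9, adjusted p from 0.0505 to 0.35) and without Gli2FF replicate 2 (Igfbp6, Nrg1, Hgf, Fgf10, Ntf3, Pdgfd, Angptl2 and Igfbp4, adjusted p from 0.089 to 0.244). With offsets for transcript length and GC content the fit ended the calls of Igfbp6, Ntf3 and Fgf2 (adjusted p from 0.0922 to 0.299), and with the ribosomal RNA covariate it ended the calls of Igfbp6, Fgf10, Ntf3, Pdgfd, Angptl2, Igfbp4 and Fgf2 (adjusted p from 0.0606 to 0.65).

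Genes tied to transforming growth factor beta (TGF-beta) counted 1 higher and 3 lower of 20, against 2.56% and 2.29% of all genes tested. Tgfbi, an extracellular TGF-beta target, was at 378 and 345 CPM in Gli3FF, against 109 and 46.5 CPM in Gli2FF (log2 change 2.22, SE 0.43, adjusted p = 0.00375). Pmepa1, a feedback inhibitor, was at 34.3 and 27.1 CPM in Gli3FF, against 112 and 109 CPM in Gli2FF (log2 change −1.85, SE 0.34, adjusted p = 0.00247). The receptor gene Tgfbr2 (log2 change −1.76) and the corepressor Tgif1 (−2.28) fell with Pmepa1. Of 15 Notch pathway genes 1 was lower and 0 higher (1 at an unadjusted p under 0.05, 0 by DESeq2 and 0 by limma voom). That gene was the target Hes1, at 16.9 and 15.6 CPM in Gli3FF, against 84.3 and 64.2 CPM in Gli2FF, with 40.6 ± 6.80 CPM in Gli2FFGli3FF and 36.8 ± 10.8 CPM in wild type (log2 change −2.19, SE 0.37, adjusted p = 0.00117). Both Gli3FF libraries were lower for Hes1 and Pmepa1 and higher for Tgfbi. Pmepa1 and Hes1 stayed called with any 1 of the 4 libraries left out. Other calls were lost without Gli3FF replicate 1 (Tgfbr2 and Tgif1, adjusted p from 0.185 to 0.353), without Gli3FF replicate 2 (Tgfbr2, adjusted p = 0.0579) and without Gli2FF replicate 2 (Tgfbi, Tgfbr2 and Tgif1, adjusted p from 0.0759 to 0.274). Offsets for transcript length and GC content ended the call of Tgfbr2 (adjusted p = 0.347), and the ribosomal RNA share as a covariate ended the calls of Tgfbi, Tgfbr2, Tgif1 and Hes1 (adjusted p from 0.0638 to 0.0972).

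Complement genes were mostly higher in Gli3FF where they passed, 6 of 27 against 1 lower, with a median of 0.18. Over all genes tested 2.56% were higher and 2.29% lower. Serping1, the inhibitor of the first complement component, was at 8060.4 and 5902 CPM in Gli3FF, against 2095 and 2211 CPM in Gli2FF (log2 change 1.70, SE 0.28, adjusted p = 0.00102). Cd59a, which blocks the membrane attack complex, was at 99.6 and 76.0 CPM in Gli3FF, against 17.1 and 18.9 CPM in Gli2FF (log2 change 2.28, SE 0.37, adjusted p = 0.000781). Masp1 (log2 change 2.28), C2 (1.63) and Cfb (1.58) also rose, and Cd55, which speeds the decay of complement convertases, fell to 67.9 and 56.6 CPM in Gli3FF, against 139 and 442 CPM in Gli2FF (log2 change −2.22, SE 0.39, adjusted p = 0.00179). The genotypes did not overlap for any of the 3 given in full. With any 1 of the 4 libraries left out Serping1 and Cd59a stayed called. Further calls were lost without Gli3FF replicate 1 (Masp1, C2 and Cfb, adjusted p from 0.15 to 0.187), without Gli3FF replicate 2 (Masp1 and Cfb, adjusted p from 0.095 to 0.0965), without Gli2FF replicate 1 (Cfb, adjusted p = 0.438) and without Gli2FF replicate 2 (Masp1, C2 and Cd55, adjusted p from 0.114 to 0.295). Other settings ended calls, by limma voom (Cfb, adjusted p = 0.057). The length and GC offsets ended the calls of C2 and Cfb (adjusted p from 0.0675 to 0.0721), and the ribosomal RNA covariate ended the calls of Masp1, C2 and Cfb (adjusted p from 0.103 to 0.358).

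Chemokines parted into 3 that rose and 3 that fell among 31, where 2.56% of all genes tested rose and 2.29% fell. Ccl19, which draws lymphocytes and dendritic cells, was at 125 and 75.4 CPM in Gli3FF, against 15.8 and 10.5 CPM in Gli2FF, with 26.6 ± 13.2 CPM in Gli2FFGli3FF and 15.9 ± 0.718 CPM in wild type (log2 change 2.93, SE 0.45, adjusted p = 0.000465). Cxcl12, a chemokine of stromal niches, was at 1853 and 1664 CPM in Gli3FF, against 551 and 534 CPM in Gli2FF (log2 change 1.70, SE 0.37, adjusted p = 0.00918), and the cytokine gene Tslp also rose (log2 change 2.70). Cxcl5, which draws neutrophils, was at 23.1 and 15.4 CPM in Gli3FF, against 96.7 and 159 CPM in Gli2FF, with 201 ± 118 CPM in Gli2FFGli3FF and 36.2 ± 6.56 CPM in wild type (log2 change −2.73, SE 0.56, adjusted p = 0.00578). The neutrophil chemokine Cxcl1 (−1.88) and the monocyte chemokine Ccl7 (−2.56) fell as well. The 25 NF-kB and acute-phase genes counted 3 lower and 0 higher (1 at an unadjusted p under 0.05, 1 by DESeq2 and 1 by limma voom). They were Nfkbiz, a nuclear regulator of NF-kB, at 14.6 and 46.9 CPM in Gli3FF, against 151 and 312 CPM in Gli2FF, with 71.3 ± 16.5 CPM in Gli2FFGli3FF and 40.8 ± 19.7 CPM in wild type (log2 change −2.91, SE 0.58, adjusted p = 0.0045), Tnfaip2 (−2.43) and Nfkb1 (−1.36). Ccl19 and Tnfaip2 passed in every fit that left out 1 of the 4 libraries. Other calls ended without Gli3FF replicate 1 (Cxcl12, Tslp, Cxcl5, Cxcl1, Ccl7, Nfkbiz and Nfkb1, adjusted p from 0.0546 to 0.295), without Gli3FF replicate 2 (Cxcl5, Cxcl1, Ccl7 and Nfkb1, adjusted p from 0.0543 to 0.235), without Gli2FF replicate 1 (Cxcl12 and Nfkb1, adjusted p from 0.09 to 0.247) and without Gli2FF replicate 2 (Cxcl12, Tslp, Cxcl5, Cxcl1, Ccl7 and Nfkbiz, adjusted p from 0.0563 to 0.349). Passing also depended on the setting, with calls lost under upper quartile scaling (Ccl7, adjusted p = 0.0513). The correction for length and GC content ended the calls of Tslp and Nfkb1 (adjusted p from 0.054 to 0.0913), and that for the ribosomal RNA share ended the calls of Cxcl12, Cxcl5, Cxcl1, Nfkbiz and Nfkb1 (adjusted p from 0.0622 to 0.176).

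Of 30 immediate-early genes, transcription factors and regulators that cells switch on within minutes of a stimulus, 5 were lower and 0 higher (1 at an unadjusted p under 0.05, 0 by DESeq2 and 0 by limma voom), with a median log2 change of −1.43. Over all genes tested 2.29% were lower and 2.56% higher. Klf2 was at 7.75 and 17.7 CPM in Gli3FF, against 102 and 74.3 CPM in Gli2FF (log2 change −2.79, SE 0.62, adjusted p = 0.00954). Klf4, Fosl2 (log2 change −1.65), Ier5 (−2.05) and Klf6 (−0.97) were the others. Summed over the list, Gli3FF replicate 1 was at 3068 CPM and replicate 2 at 7049 CPM, against 8011 and 9036 CPM in Gli2FF. The wild type sums ran from 2813 to 5181 CPM. Gli3FF replicate 1 thus lay within the wild type range, and Gli3FF replicate 2 and both Gli2FF libraries lay above it. With offsets for length and GC content the count was 0 higher and 2 lower, and with the ribosomal RNA share as a covariate 1 higher and 1 lower. Of 28 heat shock and unfolded protein genes 1 was higher and 1 lower, and the lower one was the chaperone Hsp90aa1 (log2 change −1.57, adjusted p = 0.00125). Klf4 stayed called with any 1 of the 4 libraries left out. Other calls were lost without Gli3FF replicate 1 (Klf2, Fosl2, Ier5 and Klf6, adjusted p from 0.225 to 0.498), without Gli3FF replicate 2 (Ier5 and Klf6, adjusted p from 0.0575 to 0.0585), without Gli2FF replicate 1 (Klf2 and Ier5, adjusted p from 0.0716 to 0.345) and without Gli2FF replicate 2 (Fosl2, Ier5, Klf6 and Hsp90aa1, adjusted p from 0.056 to 0.294). Calls were further lost with no filter on low counts (Klf6, adjusted p = 0.0766). Corrected for length and GC content, the fit ended the calls of Fosl2, Ier5 and Klf6 (adjusted p from 0.0516 to 0.38), and corrected for the ribosomal RNA share it ended the calls of Klf2, Fosl2, Ier5 and Klf6 (adjusted p from 0.196 to 0.439).

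Ribosomal protein genes, which have short transcripts, were higher in Gli3FF where they passed, with 1 exception. Of 76 cytosolic ribosomal protein genes, 23 were higher and 1 lower in Gli3FF, with a median log2 change of 0.87 and a median transcript length of 1100 nt. Over all genes tested 2.56% were higher and 2.29% lower. Rpl4 was at 1612 and 1244 CPM in Gli3FF, against 439.9 and 651 CPM in Gli2FF (log2 change 1.39, SE 0.24, adjusted p = 0.00124) and Rpl8 at 1207 and 959 CPM in Gli3FF, against 391.7 and 478 CPM in Gli2FF (log2 change 1.32, SE 0.23, adjusted p = 0.00175), while Rpl29 was lower (−2.53, adjusted p = 0.023). Reads of ribosomal protein genes and of their many pseudogenes can be split between copies, so single values are uncertain. With offsets for length and GC content the count was 8 higher and 1 lower, and with the ribosomal RNA share as a covariate 0 higher and 0 lower. Of 38 nuclear genes of oxidative phosphorylation, 5 were higher and 0 lower (0 at an unadjusted p under 0.05, 0 by DESeq2 and 0 by limma voom), with a median of 0.71. They were Atp5a1 (log2 change 1.22), Atp5d (1.30), Uqcrfs1 (1.504), Uqcrc1 (1.06) and Ndufa10 (1.12). With the same 2 corrections this list had 2 higher and 0 lower, and 1 higher and 0 lower. Leaving out 1 library ended calls without Gli3FF replicate 1 (Rpl29, Atp5d, Uqcrc1 and Ndufa10, adjusted p from 0.0733 to 0.521), without Gli3FF replicate 2 (Rpl29 and Uqcrc1, adjusted p from 0.128 to 0.14), without Gli2FF replicate 1 (Rpl4, Rpl8, Rpl29, Atp5a1, Atp5d, Uqcrfs1, Uqcrc1 and Ndufa10, adjusted p from 0.058 to 0.423) and without Gli2FF replicate 2 (Rpl29 and Ndufa10, adjusted p from 0.0891 to 0.11). Other settings ended calls, under relative log expression scaling (Ndufa10, adjusted p = 0.0542) and with no filter on low counts (Uqcrc1 and Ndufa10, adjusted p from 0.0652 to 0.0679). With offsets for transcript length and GC content the fit ended the calls of Atp5d, Uqcrc1 and Ndufa10 (adjusted p from 0.054 to 0.2), and with the ribosomal RNA covariate it ended the calls of Rpl4, Rpl8, Rpl29, Atp5d, Uqcrfs1, Uqcrc1 and Ndufa10 (adjusted p from 0.0562 to 0.427).

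Calls in lists of glycolysis, cholesterol and growth control ranged from 0 of 39 cell cycle genes to 4 of 20 imprinted genes, against 4.84% of all genes tested. Among 25 hypoxia and glycolysis genes Hk2 fell and Aldoa rose (log2 change 1.29, adjusted p = 0.00205), and among 24 cholesterol genes 2 were lower and 0 higher (1 at an unadjusted p under 0.05, 0 by DESeq2 and 0 by limma voom). Of 20 imprinted growth genes 4 were higher and 0 lower (4 at an unadjusted p under 0.05, 2 by DESeq2 and 1 by limma voom). Mest was at 29.1 and 27.1 CPM in Gli3FF, against 4.93 and 6.88 CPM in Gli2FF (log2 change 2.25, SE 0.50, adjusted p = 0.0104), and Ndn (2.02), Sgce (1.39) and Dcn were the others. Of 39 cell cycle genes 0 passed with edgeR, 1 was higher and 1 lower at an unadjusted p under 0.05, and DESeq2 and limma voom each called 0. Of 18 adipogenic genes 0 passed with edgeR, 0 were higher and 2 lower at an unadjusted p under 0.05, and DESeq2 called 2 lower and limma voom 0. Of 36 interferon-stimulated genes 1 was higher, Ifit2 (1.99, adjusted p = 0.0245), and 2 were lower, and of 16 MHC class I presentation genes 2 were higher and 0 lower (2 at an unadjusted p under 0.05, 2 by DESeq2 and 1 by limma voom). Sgce passed in every fit that left out 1 of the 4 libraries. Other calls ended without Gli3FF replicate 1 (Dcn, Aldoa, Mest, Ndn and Ifit2, adjusted p from 0.0727 to 0.17), without Gli3FF replicate 2 (Hk2 and Ifit2, adjusted p from 0.0574 to 0.0663), without Gli2FF replicate 1 (Mest, Ndn and Ifit2, adjusted p from 0.106 to 0.253) and without Gli2FF replicate 2 (Mest, Ndn and Ifit2, adjusted p from 0.0546 to 0.111). Offsets for transcript length and GC content ended none of these calls, and the ribosomal RNA share as a covariate ended the calls of Dcn, Hk2, Aldoa, Mest, Ndn and Ifit2 (adjusted p from 0.0547 to 0.23).

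Mesothelial markers moved with the genotypes. Their sum was 101 and 61.2 CPM in Gli3FF, against 638 and 647 CPM in Gli2FF and 216 to 556 CPM in wild type, so wild type lay between the genotypes. Of 14 markers 3 were lower and 0 higher (0 at an unadjusted p under 0.05, 0 by DESeq2 and 0 by limma voom), and 12 were lower at an unadjusted p under 0.05, with a median log2 change of −3.71. Over all genes tested 2.29% were called lower and 2.56% higher. Wt1, a transcription factor of mesothelium, was at 10.2 and 13.8 CPM in Gli3FF, against 189 and 104 CPM in Gli2FF, with 82.9 ± 33.5 CPM in Gli2FFGli3FF and 76.2 ± 11.6 CPM in wild type (log2 change −3.61, SE 0.43, adjusted p = 3.56e-05). Krt19, a keratin that mesothelial and duct epithelial cells both make, was at 1.51 and 0.736 CPM in Gli3FF, against 16.4 and 16.8 CPM in Gli2FF (log2 change −3.88, SE 1.07, adjusted p = 0.0354). Lrrn4 was at 0.358 and 3.26 CPM in Gli3FF, against 30.9 and 49.9 CPM in Gli2FF (log2 change −4.47, SE 1.07, adjusted p = 0.0162). Krt19 and Lrrn4 were near 0 in Gli3FF. The defining marker Msln was at 0.795 and 0 CPM in Gli3FF and at 7.73 and 7.28 CPM in Gli2FF, and Upk3b at 13.6 and 2.28 CPM in Gli3FF and at 24.0 and 26.5 CPM in Gli2FF. In bulk samples fewer cells of a type and less RNA per cell cannot be told apart, and the part of mesothelial RNA in the other differences was not tested. Wt1 stayed called with any 1 of the 4 libraries left out. Other calls were lost without Gli3FF replicate 1 (Krt19 and Lrrn4, adjusted p from 0.227 to 0.267), without Gli3FF replicate 2 (Krt19, adjusted p = 0.18), without Gli2FF replicate 1 (Krt19, adjusted p = 0.117) and without Gli2FF replicate 2 (Krt19 and Lrrn4, adjusted p from 0.0728 to 0.0964). Calls were further lost by limma voom (Krt19 and Lrrn4, adjusted p from 0.104 to 0.261). The length and GC offsets ended none of these calls, and the ribosomal RNA covariate ended the calls of Krt19 and Lrrn4 (adjusted p from 0.11 to 0.341).

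Markers of the remaining cell types stand beside the 4.84% of all genes tested that were called, 2.56% higher and 2.29% lower. The endothelial list, the Schwann and neural list and, through Krt19 alone, the cholangiocyte list were above that share. Of 12 tested endothelial markers 1 was higher, Eng (log2 change 1.84, adjusted p = 0.00687), a TGF-beta coreceptor that fibroblasts also make, and 2 were lower, Tek and Kdr. Kdr was at 0 and 0 CPM in Gli3FF, against 7.11 and 0.430 CPM in Gli2FF, at least 56.8-fold lower with 3 counts allowed over the Gli3FF group (adjusted p = 0.0154), and Gli2FF replicate 1 held most of its reads. The endothelial sum was 195 and 239 CPM in Gli3FF, against 102 and 139 CPM in Gli2FF. Eng alone made up most of the Gli3FF sum, at 181 and 223 CPM, against 51.4 and 61.4 CPM in Gli2FF. The median log2 change of the tested endothelial markers was −1.32. For 6 of these 12 markers both Gli3FF libraries lay below both Gli2FF libraries, and for 3 above. Over all genes tested these shares were 35.6% and 20.1%. Schwann and neural markers summed to 69.3 and 47.6 CPM in Gli3FF and to 140 and 129 CPM in Gli2FF, with Ncam1 (−2.05) and Mbp (−1.71) lower of 10 and 0 higher (1 at an unadjusted p under 0.05, 0 by DESeq2 and 0 by limma voom). Cholangiocyte markers summed to 98.9 and 68.9 CPM in Gli3FF and to 95.8 and 155 CPM in Gli2FF, and of 16 tested Krt19 was lower and 0 higher (1 at an unadjusted p under 0.05, 0 by DESeq2 and 0 by limma voom). Of 19 tested immune markers 0 passed with edgeR (0 higher and 1 lower at an unadjusted p under 0.05), with 2 lower by DESeq2 and 1 by limma voom. With any 1 of the 4 libraries left out Tek stayed called. Further calls were lost without Gli3FF replicate 1 (Krt19, Kdr, Ncam1 and Mbp, adjusted p from 0.0599 to 0.227), without Gli3FF replicate 2 (Krt19, Kdr, Ncam1 and Mbp, adjusted p from 0.0835 to 0.187), without Gli2FF replicate 1 (Krt19, Eng, Kdr, Ncam1 and Mbp, adjusted p from 0.0766 to 0.199) and without Gli2FF replicate 2 (Krt19 and Mbp, adjusted p from 0.0964 to 0.186). Other settings ended calls, under upper quartile scaling (Mbp, adjusted p = 0.0525), with no filter on low counts (Mbp, adjusted p = 0.111) and by limma voom (Krt19, adjusted p = 0.261). The correction for length and GC content ended the calls of Ncam1 and Mbp (adjusted p from 0.192 to 0.285), and that for the ribosomal RNA share ended the calls of Krt19, Eng, Kdr, Ncam1 and Mbp (adjusted p from 0.0769 to 0.341).

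**Figure D5:**
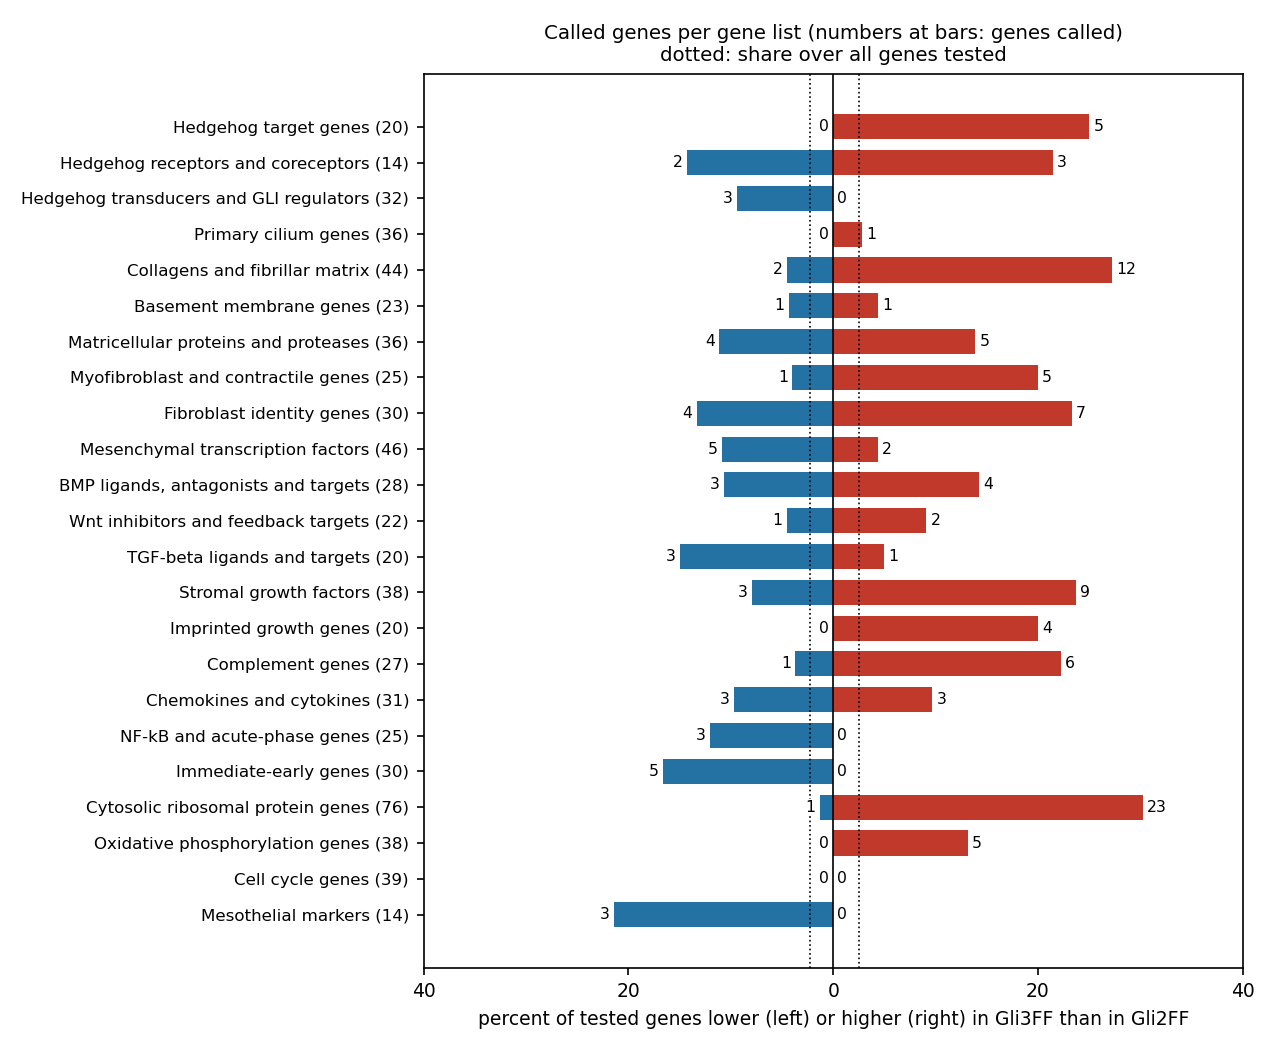
Percent of the tested members of 23 gene lists that were called higher (right) or lower (left) in Gli3FF, with the counts beside the bars and dotted lines at the 2.56% higher and 2.29% lower of all genes tested. Among the lists drawn, ribosomal protein genes (23 of 76) and fibrillar matrix (12 of 44) have the longest bars to the right and mesothelial markers (3 of 14) the longest to the left.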

How the data were processed

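About 1000 mesenchymal cells per bile duct were sorted and made into full-length cDNA libraries by a Smart-seq3 protocol with Smart-seq2 primers, per the labels' protocols. The authors deposited unnormalized whole-number counts per gene (55401 genes in each table), with no molecular identifiers in the tables, so duplicate reads of 1 molecule are counted apart. Coordinates are those of mm10, the build in the submitters' processing notes. The aligner, counter, annotation and strand setting, not given in the sources used here, are unknown. Each table gives gene symbols. Gene positions, transcript lengths and GC content were taken from GENCODE M21, which held 53292 of 55291 distinct symbols, and promoters from RefSeq.

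All 23 Pdgfra libraries were fitted together in edgeR 4.0.16 under R 4.3.3 (its expression filter, TMM scaling, quasi-likelihood test, Benjamini-Hochberg adjustment, calls at an adjusted p under 0.05), and Gli3FF was contrasted with Gli2FF. The 6 libraries of another driver line were not used. The SE of a log2 change was derived from the F statistic. Medians, log2 changes and CPM are on the scale after TMM scaling, and log2 CPM used a prior count of 2. The p-values rest on the spread between libraries within genotypes, estimated over all 23 Pdgfra libraries, and the contrast itself has 2 libraries per arm. The genes and lists were chosen with earlier results of these data known. Named in full were the Hedgehog genes, the 12 largest rises and 12 largest falls among called genes whose mean log2 CPM was 3 or more and whose libraries did not overlap between genotypes (498 higher and 415 lower genes qualified), and up to 4 called members per list with the smallest p. Other called list members, and the Hedgehog genes left out, were picked after their values were seen. Alternatives used other scalings, filters, library sets, a replicate block, the ribosomal RNA share as a covariate, DESeq2 1.42.0 and limma voom with quality weights (limma 3.58.1). Offsets for transcript length and GC content, and a fit of only the libraries with Xist under 5 CPM, were chosen after seeing the data.

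Replicate libraries differed beyond counting noise (chi-square over degrees of freedom 190 in Gli3FF and 79.0 in Gli2FF), so none was a copy. Some list members are not reported here by name. The fitting script was tested on simulated data with known answers. It called 2 of 100 genes changed 2-fold and 34 of 100 changed 4-fold, and 2 unchanged genes. Most changes of these sizes were thus missed, so a gene that did not pass may still differ between the genotypes.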

Additional observations from a re-analysis of the deposited data

Results flagged for a closer look

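Of 104 groups of library values examined for the genes above, 5 held 1 library far from the others, and chance gives about 1 in 20. Wild type replicate 5, whose description also names SmoFF, was the high library for 3 genes. It had 37.6 CPM of Bmp4, where the other wild type libraries had 27.3 to 29.2 CPM, 27.0 CPM of Gli1 (others 7.96 to 13.4 CPM) and 75.0 CPM of Nfkbiz (others 26.9 to 37.9 CPM). For Pcdh19, wild type replicate 4 stood at 55.0 CPM and the other wild type libraries at 33.1 to 35.6 CPM. For Chrdl1, Gli2FFGli3FF replicate 2 stood at 27.7 CPM and the other Gli2FFGli3FF libraries at 77.1 to 81.3 CPM. None of these libraries is a Gli3FF or Gli2FF library, where 2 libraries per genotype allow no such check.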

How the results depend on the processing

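Against 1181 called genes (623 higher and 558 lower in Gli3FF), DESeq2 called 2407 (1021 higher and 1386 lower) and limma voom 2826 (1143 higher and 1683 lower), and with no filter on low counts 916 were lower. Fits of fewer genotypes called 569 (305 higher and 264 lower) with the 3 Gli deletion genotypes, 739 (405 and 334) without wild type and 0 (0 and 0) with the 4 libraries alone. The ribosomal RNA covariate gave 236 (120 and 116), the length and GC offsets 706 (494 and 212) and the libraries with Xist under 5 CPM alone 608 (302 and 306). Leaving out 1 of the 4 libraries gave 223 to 1082 called, 127 to 568 higher and 96 to 514 lower (1112, 604 and 508 without wild type replicate 5), with 223 without Gli3FF replicate 1, 362 without Gli2FF replicate 1 and 468 without Gli2FF replicate 2. Other scalings, the stricter filter, the fit without wild type replicate 5 and those without the ribosomal RNA locus or sex-linked transcripts stayed within 1.5 times each count. The replicate block gave 895 called over all Pdgfra libraries and 450 (202 higher and 248 lower) in the 4 libraries. Same-numbered libraries did not deviate together (correlation −0.0759 over 9203 genes). In the 4 libraries the replicate number also follows Xist, under 5 CPM in replicate 1 and above it in replicate 2 of both genotypes. The block there cannot be told apart from that split. Of 150 called genes named here, 66 to 150 stayed called under these settings other than the 4 libraries alone, where 0 did. Hedgehog genes that had not passed changed sign. Cdon had a log2 change of 0.12 with the ribosomal RNA covariate, 0.80 with length and GC offsets, and −0.20 to 0.089 over the fits that left out 1 library. Over those fits it was −0.19 to 1.41 for Gli2, −0.090 to 2.01 for Gli1 and −0.14 to 1.87 for Ptch1. With only the libraries with Xist under 5 CPM it was −0.57 for Gli2, −0.15 for Boc, −0.52 for Ptch1 and −0.64 for Gli1. The cause was not tested. A lone library in these fits is assumed to vary like the other genotypes.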

Other observations

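Several genes with very small p-values are not described above, and those given here were chosen after their values were seen. Mfge8, a secreted bridge between phosphatidylserine and integrins, was at 698 and 624 CPM in Gli3FF, against 96.4 and 61.8 CPM in Gli2FF (log2 change 3.06, SE 0.28, adjusted p = 2.21e-06). Serpinf1, the secreted factor PEDF, was at 1653 and 1202 CPM in Gli3FF, against 204 and 260.2 CPM in Gli2FF (log2 change 2.62, SE 0.24, adjusted p = 2.21e-06). Olfml3, a secreted matrix protein, was at 1651 and 1429 CPM in Gli3FF, against 214 and 198 CPM in Gli2FF (log2 change 2.90, SE 0.30, adjusted p = 1.37e-05). In each of these the genotypes did not overlap. Pltp, the phospholipid transfer protein of plasma, was at 769.8 and 591 CPM in Gli3FF, against 82.5 and 87.2 CPM in Gli2FF (log2 change 3.003, SE 0.34, adjusted p = 2.38e-05), and Selenbp1, a selenium-binding protein, at 346 and 348 CPM in Gli3FF, against 66.2 and 69.5 CPM in Gli2FF (log2 change 2.35, SE 0.27, adjusted p = 3.4e-05). Adgrd1, an adhesion receptor, was at 58.8 and 52.2 CPM in Gli3FF, against 259 and 388 CPM in Gli2FF (log2 change −2.54, SE 0.27, adjusted p = 1.6e-05), Arhgap29, a GTPase-activating protein, at 30.6 and 32.0 CPM in Gli3FF, against 108 and 134 CPM in Gli2FF (log2 change −1.95, SE 0.23, adjusted p = 3.56e-05), Tspan4, a tetraspanin, at 248 and 205 CPM in Gli3FF, against 48.3 and 42.1 CPM in Gli2FF (log2 change 2.32, SE 0.28, adjusted p = 3.56e-05) and Fblim1, a protein of cell-matrix contacts, at 149 and 215 CPM in Gli3FF, against 29.1 and 19.2 CPM in Gli2FF (log2 change 2.91, SE 0.35, adjusted p = 3.56e-05). All of these genes were called in each fit that left out 1 of the 4 libraries.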
